A study of Mus musculus with 6 samples.

Results

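*Bahcc1* and other genes whose proteins carry a BAH (bromo-adjacent homology) domain were examined in nuclear RNA from mouse embryonic stem cells. The 6 members, *Bahcc1*, *Bahd1*, *Tnrc18*, *Rere*, *Ash1l* and *Pbrm1*, were found among 20633 transcript entries by matching RefSeq identifiers to gene symbols, and each had 1 entry. *Bahcc1* was chosen by its place in the authors' comparison of treated with untreated cells, and the others because they share its domain. The cells were Rybp fl/fl;Yaf2-/-, so that *Yaf2* was already deleted in every library while *Rybp* carried sites for conditional deletion. The *Yaf2* deletion had been made with Cas9 and recovered from individually picked colonies. Of the 6 libraries, 3 biological replicates were untreated (UNT) and 3 came from cells kept for 96 hr in tamoxifen (4-hydroxytamoxifen, OHT) at 800 nM, which deletes *Rybp*. There was no group of OHT-treated cells without floxed *Rybp*.

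The values described are base means. A base mean is the count of read pairs on an entry, normalized for library size by the authors and averaged over the UNT and OHT libraries together. It therefore has no error from replicates, and it says how much RNA of a gene was present but nothing about how OHT changed it. The fold changes and p-values of the authors' own comparison were not used here, counts per library were not analysed here, and the depth of each library is unknown. Every value below is a description without a test, and whether neighbouring levels differ beyond the spread between replicates was not tested.

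The BAH domain is a module of chromatin proteins that binds nucleosomes, in several cases by recognising a modified histone tail. BAHCC1 and BAHD1 are known readers of H3K27me3, the mark that Polycomb repressive complex PRC2 places, and TNRC18, the closest relative of BAHCC1, reads H3K9me3 in heterochromatin. RERE is an atrophin-family corepressor that recruits histone deacetylases. ASH1L is a histone H3K36 methyltransferase that acts against Polycomb repression, and PBRM1 is a bromodomain subunit of the PBAF chromatin remodelling complex. RYBP is a subunit of variant PRC1, the complex that ubiquitylates histone H2A, and YAF2 is its paralog.

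The libraries had the RNA of embryonic stem cells. The pluripotency genes *Pou5f1*, *Nanog*, *Sox2*, *Zfp42* and *Esrrb* had base means between 2399 and 10603, all above the median of 307 over the 19198 entries with a base mean above 0. None of the 3 primitive endoderm markers and none of the 3 trophoblast markers exceeded that median, with highest base means of 269 for *Gata4* and 79.9 for *Eomes*. Among the fibroblast markers *Col1a1* did, at 369, while *Dcn* had 10.2. These values are not corrected for length. Per kb of gene span *Col1a1* had 22.0, *Cdx2* 11.6 and *Eomes* 10.1, against a median of 12.1 over all entries. The lowest of the pluripotency genes on that scale had 66.1. *Yaf2*, the gene deleted beforehand, had a base mean of 3.24, at percentile 11.7 of these entries. *Rybp* had 13983, a mean over cells with and without OHT that cannot show the deletion.

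All 6 BAH-domain genes had a higher base mean than the median entry, before any correction for length. The base mean of *Rere* was 10805 normalized counts, and that of *Pbrm1* was 9669. *Ash1l* had 3909.8. *Bahcc1* and *Tnrc18*, the related pair, had 1079 and 947, and *Bahd1* had 443. In percentiles of all entries with a base mean above 0, *Rere* and *Pbrm1* lay at 98.7 and 98.5, *Ash1l* at 92.0, *Bahcc1* at 72.0, *Tnrc18* at 69.8 and *Bahd1* at 55.8. By count, the members thus spanned the upper part of the distribution, with *Bahd1* just above its middle.

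**Figure D1:**
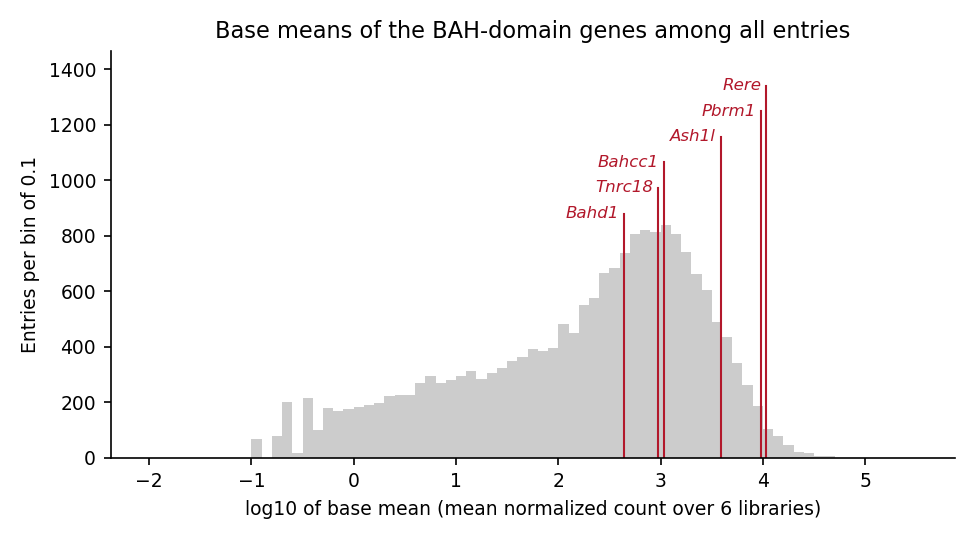
Number of entries (vertical axis) by the log10 of their base mean (horizontal axis), with the base means of the 6 BAH-domain genes as red lines whose heights carry no value. All 6 lie above the median entry of 307, from *Bahd1* at 443 to *Rere* at 10805.

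These genes differ widely in length, and base means of different genes can be compared only per length. By the RefSeq annotation of GRCm38.p6, *Bahcc1* lies on the plus strand of chromosome 11 from 120232870 to 120292297, a span of 59.4 kb. *Bahd1*, the shortest, lies on the plus strand of chromosome 2 from 118900336 to 118924528 (24.2 kb). *Tnrc18* occupies chromosome 5 between 142724602 and 142823668 on the minus strand (99.1 kb). *Rere* is by far the longest, on the plus strand of chromosome 4 from 150281511 to 150621966 (340.5 kb). *Ash1l* lies on the plus strand of chromosome 3 from 88950414 to 89079375 (129 kb), and *Pbrm1* on the plus strand of chromosome 14 from 31019138 to 31121592 (102 kb). No pair of members shares a chromosome.

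Their exons take up different shares of the span. In the GENCODE transcripts matched to the entries, exons amounted to 10.7 kb in *Bahcc1* (28 exons, 18.0% of the gene span) and to 4.59 kb in *Bahd1* (7 exons, 19.0%). In *Tnrc18* they amounted to 9.34 kb over 25 exons, and in *Ash1l* to 11.3 kb over 27 exons, 9.43% and 8.74% of the span. *Pbrm1* had 33 exons with 6.57 kb, or 6.41%. *Rere* had 23 exons with 7.73 kb, only 2.27% of its span. The matched transcript of *Tnrc18* covers 63.9 kb, less than the gene, and starts downstream of the gene's first start site.

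**Figure D2:**
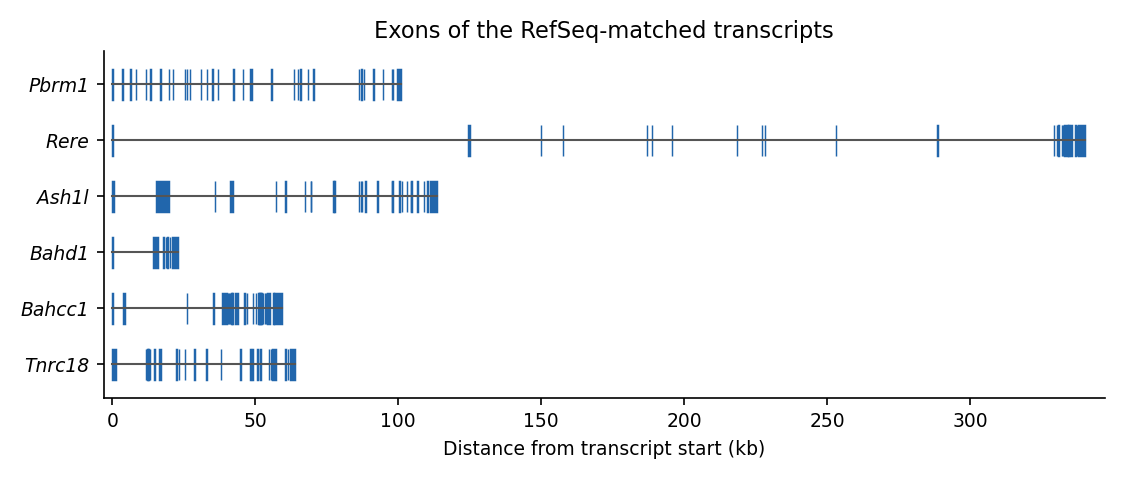
Exons (blue boxes) of the GENCODE transcript matched to the RefSeq entry of each BAH-domain gene, drawn to scale along the distance from the transcript start in kb. Exons narrower than the outline appear at its width; *Rere* extends over 340.3 kb and *Bahd1* over 23.1 kb.

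Per kb of gene span, a scale that suits nuclear RNA with its unspliced transcripts, *Pbrm1* had the highest level of the members, at 94.4 normalized counts per kb. *Rere* had 31.7 per kb on this scale and stood beside *Ash1l* at 30.3. *Bahd1* and *Bahcc1* were nearly the same, at 18.3 and 18.2 per kb. *Tnrc18* was lowest, at 9.56 per kb. *Pbrm1* thus stood 5.20 times above *Bahcc1*, and *Bahcc1* 1.90 times above *Tnrc18*. The median over all 19133 entries with a base mean above 0 and a known span was 12.1 per kb, and 5 of the 6 members lay above it. *Pbrm1* was at percentile 87.3 of these entries, *Rere* at 67.2, *Ash1l* at 66.3, *Bahd1* at 56.8, *Bahcc1* at 56.7 and *Tnrc18* at 46.5. The count above the median holds for this scale only. Per kb of exon *Bahcc1*, *Bahd1* and *Tnrc18* were all below the middle, at percentiles 47.8, 47.1 and 47.9.

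On both length scales *Bahcc1*, *Bahd1* and *Tnrc18* were below *Rere*, *Ash1l* and *Pbrm1*, a division drawn after the values were seen. Per kb of span it is not the widest step between neighbours. *Ash1l* stood 1.66 times above *Bahd1*, against 2.97 for *Pbrm1* above *Rere* and 1.90 for *Bahcc1* above *Tnrc18*. *Bahcc1*, *Bahd1* and *Tnrc18* had between 9.56 and 18.3 normalized counts per kb of span. *Rere*, *Ash1l* and *Pbrm1* had between 30.3 and 94.4. Per kb of exon, the scale that suits spliced RNA, the first 3 genes were within a narrow range of 96.4 to 101, and the other 3 ran from 347 for *Ash1l* to 1473 for *Pbrm1*. *Rere* gained most from this scale, with 1398 per kb of exon, 13.9 times the level of *Bahcc1*, since nearly all of its span is intron. *Tnrc18*, the lowest per kb of span, was level with *Bahcc1* per kb of exon, with a ratio of 1.01. With the span of its matched transcript in place of the gene's, *Tnrc18* had 14.8 per kb, and its ratio to *Bahcc1* was 0.815 rather than 0.526. The authors added an alignment step meant to map more intronic reads. Whether their script counted introns as well as exons is not stated, so the 2 length scales are given side by side.

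Genes on the opposite strand overlap some of the members. *Dap3*, with a base mean of 1793, overlaps *Ash1l*, and *Gnl3*, with 5672, overlaps *Pbrm1*. *Bahcc1* is overlapped by 2 annotated genes, an antisense RNA and a microRNA, neither of which had an entry. No annotated gene overlaps *Bahd1* or *Tnrc18*. The libraries were made with a kit that keeps strand, but whether the counting used it is not stated, and the part of *Dap3* and *Gnl3* reads in the levels of *Ash1l* and *Pbrm1* was not tested. Among measured genes within 10 kb of a member, *Chst14* lies 1967 bp from *Bahd1* and had a base mean of 105, and *Slc29a4* lies 2111 bp from *Tnrc18* and had 242. *Bahcc1* has no measured gene within that distance.

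The 5 BAH-domain genes outside the members stood at or above the level of *Bahcc1*. *Dnmt1*, the maintenance DNA methyltransferase, had 135 normalized counts per kb of span. *Mta2* had 194, *Mta1* 52.6 and *Mta3* 18.7, all 3 encoding subunits of the NuRD deacetylase complex. *Orc1*, the origin recognition subunit, had 76.9. Per kb of exon these 5 genes ran from 643 for *Mta2* to 1354 for *Dnmt1*, above each of *Bahcc1*, *Bahd1*, *Tnrc18* and *Ash1l* and below *Rere* and *Pbrm1*. *Mta3* was close to *Bahcc1* per kb of span (ratio 1.03) and 8.19 times above it per kb of exon, as a long gene with little exon.

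**Figure D3:**
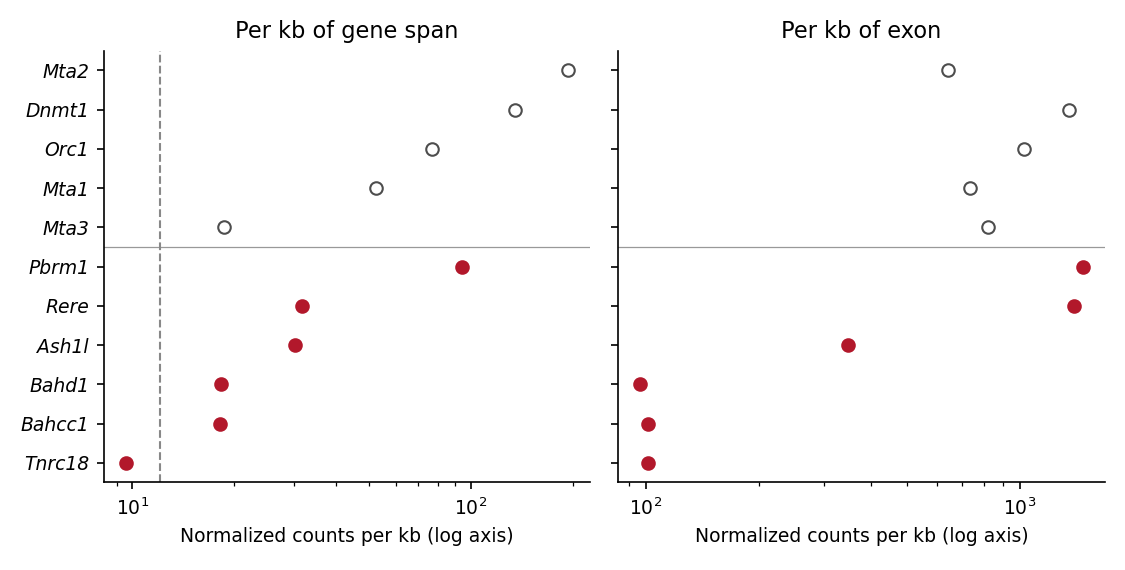
Base mean per kb of gene span (left) and per kb of exon (right), on log axes, for the 6 BAH-domain genes (filled red) and 5 other BAH-domain genes (open); the dashed line is the median of all entries, 12.1 per kb of span. *Bahcc1*, *Bahd1* and *Tnrc18* lie at 9.56 to 18.3 per kb of span and at 96.4 to 101 per kb of exon, and *Pbrm1* leads the 6 genes on both scales.

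The genes of PRC2 stood at higher levels per kb than those of the BAH-domain readers of its mark. *Suz12*, *Eed* and *Ezh2*, the core of PRC2, had 321, 176 and 94.5 normalized counts per kb of span, which is 17.7, 9.71 and 5.20 times the level of *Bahcc1*. *Ezh1*, the other catalytic subunit, had 49.3. Of the demethylases, *Kdm6a* had 58.8 and *Kdm6b* 21.2, so that *Kdm6b* was the one gene of this list near *Bahcc1*. Per kb of exon *Kdm6b* was below *Bahcc1*, with 69.6 against 101.

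*Pbrm1* lay within the range of its PBAF partners on both length scales. The 7 partners with an entry ran from 57.1 for *Smarca4*, the ATPase, to 148 for *Actl6a*, an actin-related subunit, with a median of 97.7 per kb of span against 94.4 for *Pbrm1*. Per kb of exon *Pbrm1*, at 1473, was above all of them except *Smarcc1*, which had 1848, and the lowest was *Smarce1* with 757. *Arid2* and *Brd7*, which are specific to PBAF, had 69.3 and 99.4 per kb of span, and no entry was matched to *Phf10*. By contrast, *Bahd1*, at 18.3 per kb, lay under each of the 5 genes listed as its partners, from *Cdyl*, a chromodomain corepressor, at 39.8 to *Mier1*, a scaffold of deacetylase complexes, at 120.1. *Bahd1* was also below each of them per kb of exon, with 96.4 against 296 for *Mier3*, the lowest. The deacetylases *Hdac1* and *Hdac2*, listed for *Bahd1* and for *Rere*, had 94.3 and 68.2.

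*Rere* and its paralog *Atn1*, which lacks the BAH domain, were close per kb of span, with 31.7 and 25.6. Per kb of exon they were far apart, at 1398 and 80.6, in a long gene and a short one of 13.9 kb. *Ehmt2*, an H3K9 methyltransferase listed with *Rere*, had 99.5 per kb of span. *Ash1l*, at 30.3, was among the lower genes of its group. The other H3K36 methyltransferases were *Nsd1* with 177, *Setd2* with 73.6, *Nsd2* with 47.4 and *Nsd3* with 23.3 per kb of span. *Morf4l1* and *Rbbp4*, listed as partners of *Ash1l*, had 119 and 210.1.

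**Figure D4:**
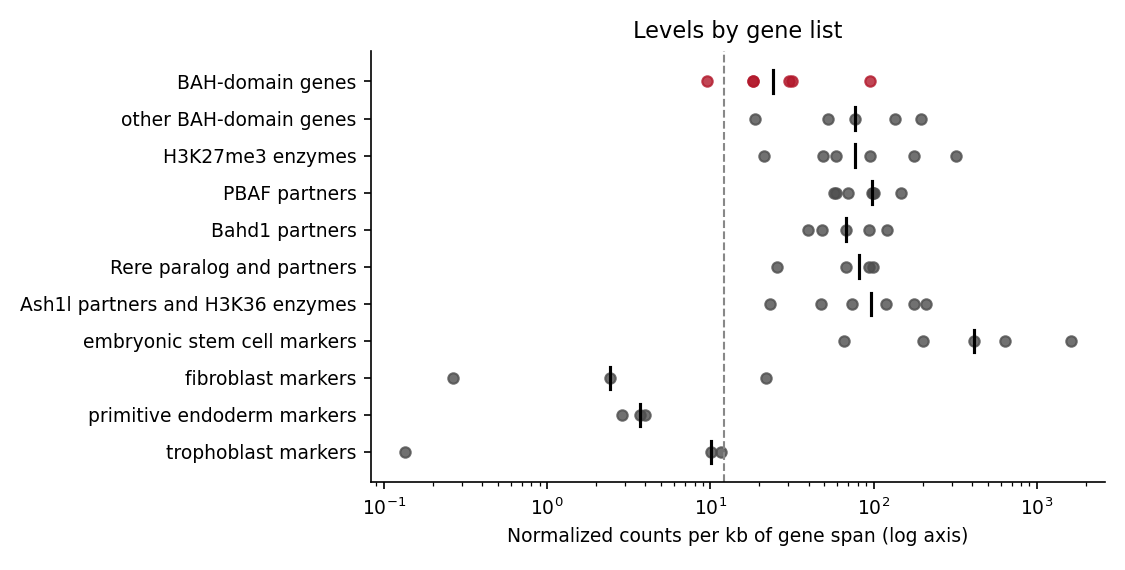
Normalized counts per kb of gene span, on a log axis, for the genes of each list (points) with the list median (black bar); the dashed line is the median of all entries, 12.1. The 6 BAH-domain genes (red) have a median of 24.3, the 5 other BAH-domain genes 76.9 and the PBAF partners 97.7.

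The 3 genes just below *Bahcc1* per kb of span were *Xpa* (18.16), *Pacc1* (18.15) and *Akap13* (18.14), and the 3 just above were *Zfp185* (18.17), *Gpat2* (18.17) and *Daam1* (18.18). Their base means ran from 199 for *Gpat2* to 5425 for *Akap13*, so that genes of very different count and length share this level.

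The start sites of the members for which sequence was available are rich in CpG. CpG content was not a criterion in choosing the members, but its relation to the comparison that gave *Bahcc1* was not tested. CpG dinucleotides are rare in the mouse genome except in CpG islands, the stretches at which Polycomb complexes are known to nucleate. Windows of 300 bases, from 250 before to 50 after the start site, were available from RefSeq (GRCm38.p6) for 5 of the 6 members, that of *Ash1l* not being in the table used. The 250 bases before the start are shown for 2 members, with each CpG in capitals. Over the 300 bases these have the lowest and the highest CpG ratio of the members. They are *Bahcc1* (chr11:120232697-120232946, plus strand) and *Pbrm1* (chr14:31018888-31019137, plus strand).
Bahcc1: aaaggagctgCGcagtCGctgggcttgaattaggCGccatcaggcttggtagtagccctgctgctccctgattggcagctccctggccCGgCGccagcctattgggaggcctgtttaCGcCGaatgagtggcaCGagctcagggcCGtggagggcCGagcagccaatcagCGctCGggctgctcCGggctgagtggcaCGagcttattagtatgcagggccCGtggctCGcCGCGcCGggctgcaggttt
Pbrm1: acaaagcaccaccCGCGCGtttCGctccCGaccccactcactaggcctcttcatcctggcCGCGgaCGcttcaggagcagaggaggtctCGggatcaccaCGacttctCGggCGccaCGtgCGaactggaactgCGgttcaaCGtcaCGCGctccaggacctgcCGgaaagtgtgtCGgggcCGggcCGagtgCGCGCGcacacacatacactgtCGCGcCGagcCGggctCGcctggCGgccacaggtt

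In the 250 bases before the start, the sequence of *Bahcc1* holds 19 CpG and that of *Pbrm1* 31. Among the members the count there ran from 16 in *Rere* to 39 in *Bahd1*. The ratio in these bases was 0.71 in *Rere* and 0.72 in *Bahcc1*. Over the 300 bases, the ratio of observed to expected CpG was 0.75 in *Bahcc1*, 0.79 in *Rere*, 0.80 in *Tnrc18*, 0.92 in *Bahd1* and 1.01 in *Pbrm1*, with a median of 0.38 over all 32851 windows. GC content ran from 59.3% in *Tnrc18* to 81.0% in *Bahd1*, against a median of 52.7%. All 5 windows passed both a ratio of 0.6 and a GC content of 50%, as did 33.5% of all windows. Among the other BAH-domain genes, *Mta1*, *Mta2* and *Orc1* also passed both. The window used for *Dnmt1* fell below the ratio, and *Mta3* had no window. The share of all windows includes genes at any level of RNA, whereas every member had a base mean above the median entry. Whether the members differ in CpG from genes at similar levels was not tested. The *Tnrc18* window does not lie at the start of its matched transcript or at the outer end of the gene's span, but between them. In *Rere* and *Bahd1* the 250 bases begin at 150281666 and 118901365, inside the gene spans, which start at 150281511 and 118900336. Their values are thus not of sequence upstream of the gene. The 250 bases of *Bahcc1* run past the start of its span at 120232870, and those of *Pbrm1* end just before its span. *Bahcc1* and *Pbrm1*, at opposite ends in CpG ratio, were also far apart in level per kb of span, but *Bahd1* combined a ratio of 0.92 with nearly the level of *Bahcc1*. Methylation of these windows and binding of PRC1 to them were not analysed here.

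**Figure D5:**
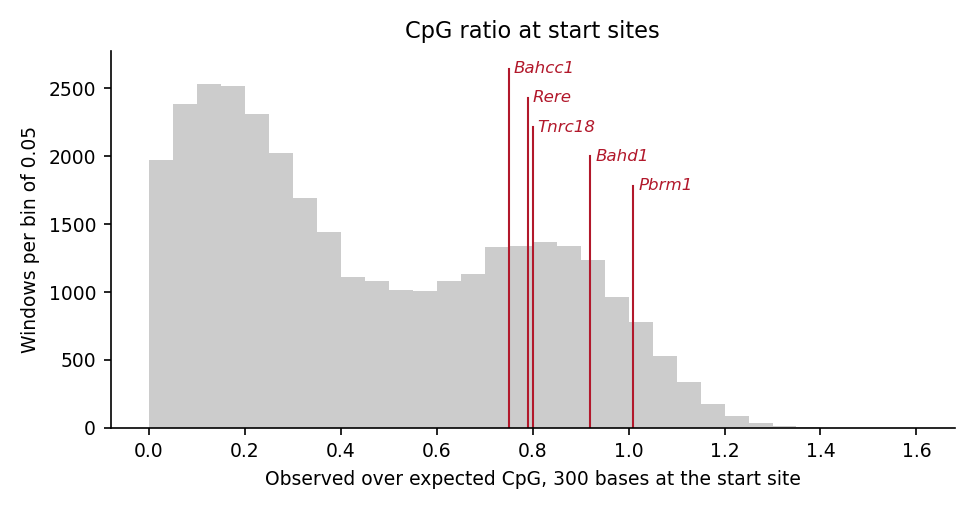
Number of RefSeq start-site windows (vertical axis) by their ratio of observed to expected CpG over 300 bases (horizontal axis), with 5 BAH-domain genes as red lines whose heights carry no value. All 5 lie in the upper hump of the distribution, from *Bahcc1* at 0.75 to *Pbrm1* at 1.01.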

How the data were processed

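The authors removed rRNA reads with bowtie2 and aligned 40 bp read pairs to mm10 with STAR. Reads that STAR left were aligned with bowtie2, with the aim of mapping more intronic sequence. Counting used their own script on a filtered, non-redundant RefSeq gene set. Tool versions are not given in the sources used here. The base mean they deposited is a signal: counts scaled by the authors' DESeq2 size factors and averaged across the 6 libraries, with no correction for length. The deposited table also holds their fold changes, standard errors, statistics and p-values, which were not used.

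Symbols came from the RefSeq gene table of GRCm38.p6 (20450 of 20633 entries) and then GENCODE vM21 (20560). Base means were divided by the gene span or, as an alternative, by summed exons. Percentiles count ties as shared equally. Computations used Python 3.11.15, numpy 2.4.6, pandas 2.3.3 and matplotlib 3.10.9, and the functions were tested on simulated data. The members and lists were chosen with earlier results of these data known. All members were named, and the other genes by list. The planned protein alignment was not run, as protein sequences were not used here.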

Additional observations from a re-analysis of the deposited data

How the results depend on the processing

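No paired analysis was possible because the values used are means over all libraries; for the same reason no replicate was left out, and replicate error is unknown. A level or CpG ratio was taken as moved past 1.5 times and a percentile past 5 points. Summing entries could move no value, since each member had 1 entry. Ranking against 1 entry per gene and the 250 bases before the start alone moved no value. Length mattered most. Per kb of exon the levels were 101 for *Bahcc1*, 96.4 for *Bahd1*, 101 for *Tnrc18*, 1398 for *Rere*, 347 for *Ash1l* and 1473 for *Pbrm1*, a shift that the shorter divisor itself produces. In the order of the members *Bahd1* went from place 4 to 6 and *Tnrc18* from 6 to 4, while percentiles became 47.8 for *Bahcc1*, 47.1 for *Bahd1*, 93.5 for *Rere* and 94.1 for *Pbrm1*. With the span of the matched transcript, chosen after seeing the data, *Tnrc18* had 14.8 per kb, and *Ash1l* (place 2) passed *Rere* (place 3). Ranking only against entries whose base mean is 10 or more drops low genes and so lowered percentiles, by base mean to 65.7 for *Bahcc1*, 45.7 for *Bahd1* and 62.9 for *Tnrc18*, and per kb of span to 46.8 for *Bahcc1*, 47.0 for *Bahd1*, 34.4 for *Tnrc18*, 59.7 for *Rere* and 58.7 for *Ash1l*. Of these settings only a change of length scale could reorder the members. Per kb of exon and per kb of the matched transcript, *Bahcc1*, *Bahd1* and *Tnrc18* stayed below *Rere*, *Ash1l* and *Pbrm1*. That division was drawn from these same values, so its return is a description and not a test.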

Other observations

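Over the 19046 entries with both lengths known, the base mean rose with gene span (Spearman's rho 0.35) and with exon length (rho 0.38), which are themselves correlated (rho 0.54). Within 5 equal groups of entries by exon length, made of genes with introns, the rho of base mean with span ran from 0.07 to 0.19. These are descriptions across genes, which share libraries and are not independent replicates, and they do not settle which length scale fits the counts of the BAH-domain genes better.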
